A study of Mus musculus with 30 samples.

Results

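NF-κB is a family of dimeric transcription factors, and the levels of its subunits, inhibitors and response genes were measured by RNA-Seq in the extensor digitorum longus (EDL), a fast-twitch muscle of the mouse hind limb. The 10 genes described here are 4 subunits (NFKB1, NFKB2, RELA and RELB), 2 inhibitors of the IκB family (NFKBIA and NFKBIB) and 4 genes known to be induced by NF-κB (TNFAIP3, TNFAIP2, BIRC3 and TRAF1). They were chosen by gene symbol, and all 10 were found among the 21073 genes of the table. The samples were 30 EDL muscles in 6 groups of 5, each taken as 1 mouse, from female SJL/J mice. EAE mice carried experimental autoimmune encephalomyelitis, a model of relapsing-remitting multiple sclerosis, after immunization with the [Ser140]-PLP139-151 peptide of myelin proteolipid protein in complete Freund's adjuvant (CFA), with no pertussis toxin. OVA mice received ovalbumin in CFA and so shared the adjuvant with the EAE mice but not the myelin antigen, and Ctrl mice were not immunized. Muscles were taken on day 14, at the peak of EAE, or on day 40, in the second remission. Whole muscle was homogenized, so fewer cells of a type and less RNA per cell cannot be told apart.

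In the canonical NF-κB pathway, receptors such as the TNF receptor activate the IKK kinase complex, which marks IκB proteins for destruction and frees dimers of RELA and p50, the product of NFKB1. In the non-canonical pathway, a subset of TNF family receptors stabilizes the kinase NIK, the p100 product of NFKB2 is cut to p52, and p52 acts with RELB. NF-κB in turn induces its own inhibitors, among them IκBα from NFKBIA and the ubiquitin-editing enzyme A20 from TNFAIP3, which close a negative feedback loop. In skeletal muscle the pathway is known for its part in atrophy and in the response to inflammation.

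Levels are given in RPKM, reads scaled to exon length and to the mapped reads of the library, which can be compared between genes. A gene was called higher or lower in limma where its adjusted p was below 0.05 and its fold change exceeded 1.5, and the fit took in all genes whose mean exceeded 3 RPKM in either group of the pair. By that filter 8 of the 10 genes were tested in every comparison. TNFAIP3 and TRAF1 lay below 3 RPKM in every group, and their values come from the same fit without the filter. The estimated depth was 18.2 to 31.7 M reads per mouse, and the mouse at 31.7 M reads was EAE day 14 replicate 3, with no other above 24.8. All 10 markers of fast fibres lay above 3 RPKM in each group, as the labelled muscle requires. On day 14 they summed to 49826 to 71337 RPKM in EAE, 73556 to 117992 RPKM in Ctrl and 67058 to 106844 RPKM in OVA mice. The mean was higher in EAE than in OVA for 4 of the 10. The 6 slow fibre markers summed to 962 to 1727 RPKM in EAE, 1657 to 2875 RPKM in Ctrl and 1694 to 2729 RPKM in OVA mice. The part of these sums in the results below was not tested.

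The 10 genes spanned a wide range of levels in resting muscle. In the Ctrl mice of day 14, the highest mean was that of TNFAIP2 at 49.4 ± 14.8 RPKM (SD, n = 5). NFKBIA followed at 26.2 ± 4.92 RPKM, NFKBIB at 15.8 ± 1.99 RPKM and RELA at 13.9 ± 1.14 RPKM. NFKB1 stood at 9.26 ± 1.85 RPKM, NFKB2 at 8.95 ± 1.29 RPKM and RELB at 6.09 ± 1.03 RPKM. The lowest were BIRC3 at 3.45 ± 0.704 RPKM, TNFAIP3 at 2.01 ± 0.386 RPKM and TRAF1 at 1.04 ± 0.241 RPKM. Among neighbours in this order, the mice of NFKBIB and RELA overlapped, as did those of NFKB1 and NFKB2 and those of BIRC3 and TNFAIP3, while the other neighbours did not overlap.

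κB sites are the sequences to which NF-κB dimers bind. Some of the genes were listed because they are known to be induced by NF-κB, so matches among them are not independent of that choice. RefSeq promoter windows of 300 bases, reaching from 250 bases before a transcript start to 50 after it on GRCm38.p6, the assembly also called mm10, were searched on both strands for the 10-base κB consensus. NFKB1 and RELB were not searched. The 8 genes searched had 11 windows, and 3 of the genes held the consensus in at least 1 window (NFKB2, NFKBIA and TNFAIP3). Of all 32851 windows 4.51% held it, which is a share of windows and not of genes. A relaxed consensus, which leaves more of the middle bases free and takes in every match to the stricter one, was held by 11.2% of all windows and by 1 further gene, TNFAIP2. The other 4 (RELA, NFKBIB, BIRC3 and TRAF1) held neither, which says only that these letters were not in those windows. The stretches around the matches are printed below 5′ to 3′ on the gene's strand because they show which of the genes carry the consensus next to a start, and the capitals mark the 10 matched bases.
NFKB2, chr19:46304688-46304717, plus strand, 39 bases before the first of 3 starts: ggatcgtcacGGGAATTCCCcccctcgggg
NFKB2, chr19:46304716-46304736, plus strand, 11 bases before the same start: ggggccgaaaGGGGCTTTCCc
NFKB2, chr19:46305449-46305478, plus strand, 236 bases before the second start: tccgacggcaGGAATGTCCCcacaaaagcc
NFKB2, chr19:46305695-46305724, plus strand, 225 bases before the third start: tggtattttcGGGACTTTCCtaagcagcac
NFKBIA, chr12:55492657-55492686, minus strand, 29 bases before the start: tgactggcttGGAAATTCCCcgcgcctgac
TNFAIP3, chr10:19015516-19015545, minus strand, 125 bases before the first of 2 starts: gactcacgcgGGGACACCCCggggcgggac
TNFAIP3, chr10:19015411-19015432, minus strand, 12 bases before the same start: aatttccatcGGAAATCCCCct
TNFAIP2, chr12:111442627-111442656, plus strand, 24 bases before the start, relaxed consensus only: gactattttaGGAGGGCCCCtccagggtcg
The first NFKB2 match reads as the consensus on both strands, and a second match overlaps it at a shift of 1 base. The match before the third NFKB2 start also lies 10 bases after the second start. At the second TNFAIP3 start neither consensus was found. A match is a description of the sequence and not a binding site shown in this muscle.

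**Figure D1:**
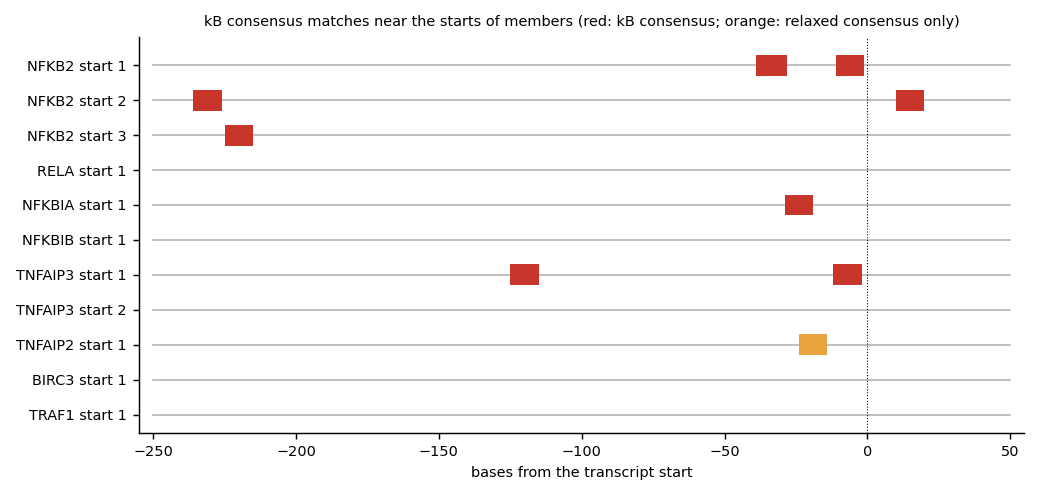
Positions of κB consensus matches (red) and of matches to the relaxed consensus only (orange) in the promoter windows of the 8 genes searched, with the distance from the transcript start in bases on the x axis and 1 line per start. NFKB2 has matches near all 3 of its starts, NFKBIA and TNFAIP3 near a start, and NFKBIB near none.

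The first question was what EAE did at its peak, against both unimmunized mice and mice given the adjuvant with another antigen. On day 14 the partners of the non-canonical pathway, NFKB2 and RELB, and the inhibitor NFKBIB were higher in EAE muscle than in both control groups, and TNFAIP2 was lower. The subunits of the canonical pathway, NFKB1 and RELA, and the feedback inhibitor NFKBIA were not called. Against Ctrl, 3 of the 8 genes tested were called higher and 1 lower, beside 14.6% and 11.8% of the 8771 genes tested. Against OVA the counts were again 3 and 1, beside 11.0% and 9.28% of 8674 genes. The same EAE mice stand in both comparisons. The median log2 fold change of the 8 genes was 0.18 against Ctrl and 0.12 against OVA, where the median over all genes tested was 0.11 in each. With so many genes called across the table, these counts are read gene by gene below. Across all genes, 1282 were higher and 1036 lower in EAE than in Ctrl, a split that turned to 985 and 1240 under median-of-ratios scaling, and against OVA 957 and 805 turned to 731 and 996.

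**Figure D2:**
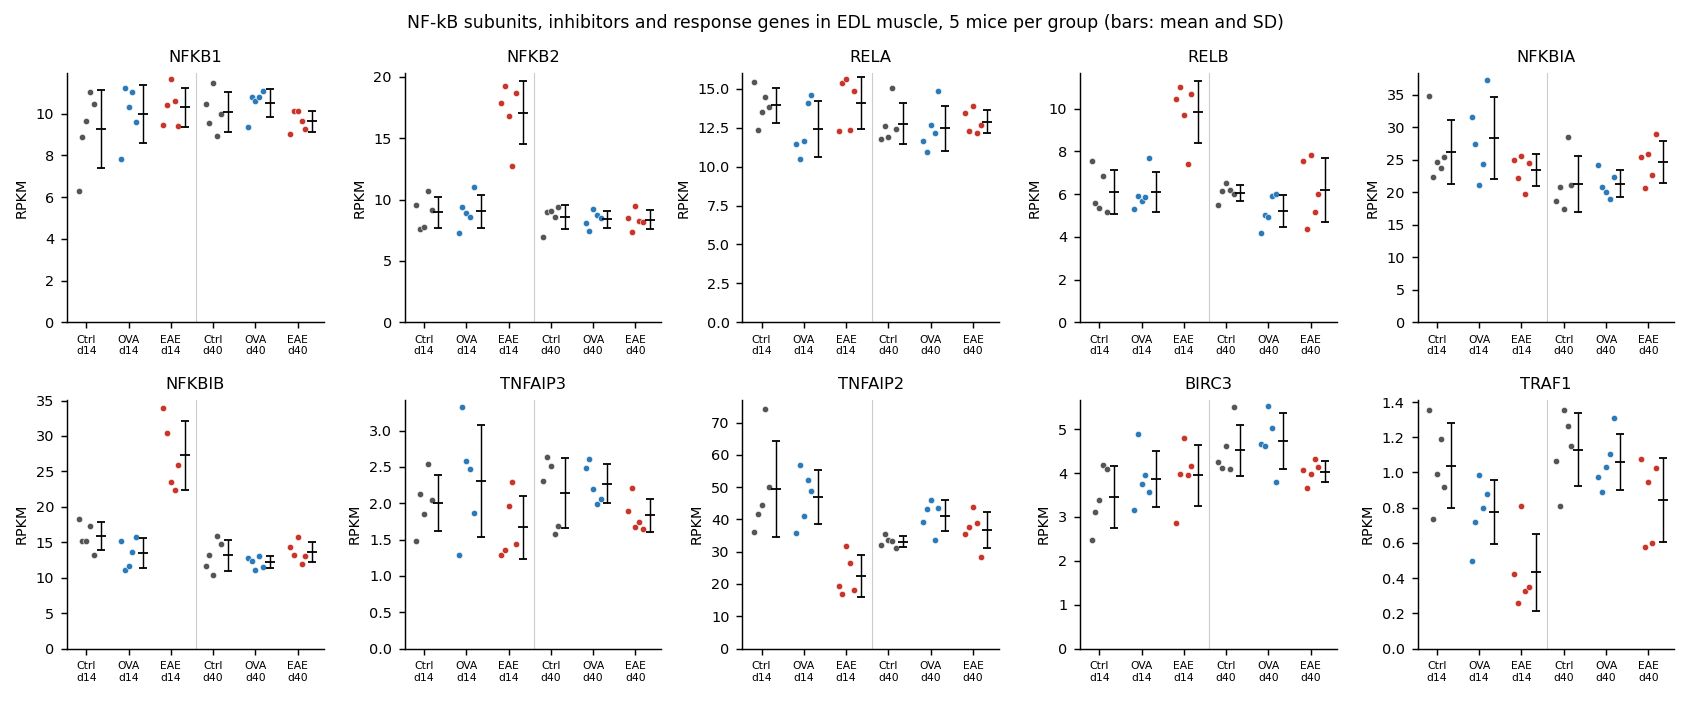
RPKM of the 10 genes in each of the 30 mice (points), by group on the x axis, with the mean and SD of the 5 mice as a bar beside the points. By mean, NFKB2, RELB and NFKBIB stand higher and TNFAIP2 and TRAF1 lower in the EAE mice of day 14 than in every other group. Single EAE mice of day 14 overlap the controls of that day for RELB and TRAF1 and the mice of day 40 for TNFAIP2. NFKB1, RELA, NFKBIA, TNFAIP3 and BIRC3 overlap across the groups of day 14.

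NFKB2 (chr19:46300994-46312400), which encodes p100 and p52, had the largest rise of the subunits. Its levels were 7.58, 7.80, 9.11, 9.60 and 10.7 RPKM in the Ctrl mice and 7.31, 8.59, 8.91, 9.36 and 11.0 RPKM in the OVA mice. In the EAE mice they were 12.8, 16.8, 17.9, 18.7 and 19.2 RPKM. All 5 EAE mice lay above every control mouse of that day, and the EAE mouse at 12.8 RPKM was replicate 4. The log2 fold change was 0.92 (SE 0.14, limma adjusted p = 8.01e-05) against Ctrl and 0.91 (SE 0.14, limma adjusted p = 0.000103) against OVA, or 1.89-fold and 1.88-fold.

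RELB (chr7:19606217-19629438), the partner of p52, was called with NFKB2, at a smaller fold change. Its levels ran from 5.18 to 7.53 RPKM in the Ctrl mice and from 5.29 to 7.69 RPKM in the OVA mice, and were 7.43, 9.70, 10.5, 10.7 and 11.0 RPKM in the EAE mice. Of the EAE mice, 4 lay above all controls, and replicate 4, again the lowest, fell among the highest controls, so the ranges overlapped. The log2 fold change was 0.69 (SE 0.14, limma adjusted p = 0.000988) against Ctrl and 0.68 (SE 0.14, limma adjusted p = 0.00127) against OVA. The second call was lost under quantile normalization, where the log2 fold change was 0.57.

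The canonical subunits were not called. NFKB1 (chr3:135584655-135691969), the source of p50, measured 9.38, 9.47, 10.4, 10.6 and 11.7 RPKM in EAE mice, inside the span of 6.28 to 11.2 RPKM in the control mice of that day except for the highest mouse. Its log2 fold change was 0.18 against Ctrl (95% interval -0.13 to 0.48) and 0.05 against OVA (-0.25 to 0.35). RELA (chr19:5637442-5648134), which carries the main transactivating activity of canonical dimers, measured 12.3, 12.3, 14.9, 15.3 and 15.6 RPKM in EAE mice and 10.5 to 15.4 RPKM in the controls. For RELA the log2 fold change was 0.01 (-0.23 to 0.25) against Ctrl and 0.18 (-0.06 to 0.42) against OVA. These intervals leave out a 1.5-fold rise of NFKB1 and RELA.

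Of the IκB inhibitors, NFKBIB was called higher and NFKBIA was not called, and the difference between the genes was not tested. NFKBIB (chr7:28758251-28766644), which encodes IκBβ, measured 13.3, 15.1, 15.2, 17.3 and 18.3 RPKM in Ctrl mice and 11.1, 11.6, 13.6, 15.2 and 15.8 RPKM in OVA mice. In EAE mice it measured 22.4, 23.5, 25.9, 30.5 and 34.0 RPKM. Every EAE mouse lay above every control, and the log2 fold change was 0.77 (SE 0.14, limma adjusted p = 0.000383) against Ctrl and 1.01 (SE 0.14, limma adjusted p = 4.63e-05) against OVA. NFKBIA (chr12:55489409-55492647), the classical feedback inhibitor with a κB match just before its start, measured 19.8, 22.2, 24.4, 25.0 and 25.6 RPKM in EAE mice. Its controls ran from 21.1 to 37.3 RPKM, and the difference was -0.15 (95% interval -0.47 to 0.17) against Ctrl and -0.25 (-0.57 to 0.07) against OVA on the log2 scale. Its intervals hold no rise as large as that of NFKBIB.

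TNFAIP2 (chr12:111442450-111455018), a TNF-inducible gene known in endothelial and myeloid cells, was the highest of the 10 genes in controls and fell in EAE. The Ctrl mice measured 36.0, 41.8, 44.6, 50.2 and 74.2 RPKM and the OVA mice 35.8, 41.2, 48.9, 52.1 and 56.9 RPKM. The EAE mice measured 16.9, 18.1, 19.3, 26.4 and 31.9 RPKM, all below every control. The log2 fold change was -1.13 (SE 0.21, limma adjusted p = 0.000458) against Ctrl and -1.08 (SE 0.21, limma adjusted p = 0.000755) against OVA, so that the EAE mean was 45.6% of the Ctrl mean and 47.9% of the OVA mean. The EAE mouse nearest to the controls was replicate 3, the most deeply sequenced, and without it the log2 fold change against Ctrl was -1.26.

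TRAF1 (chr2:34941750-34961812), an adaptor of TNF family receptors, was also lower in EAE but rested on few reads. Its levels were 0.736, 0.920, 0.991, 1.19 and 1.36 RPKM in Ctrl mice, 0.500, 0.720, 0.798, 0.879 and 0.984 RPKM in OVA mice and 0.258, 0.327, 0.352, 0.422 and 0.811 RPKM in EAE mice. Replicate 3 again stood highest among the EAE mice and inside the control range, and the other 4 lay below all controls. The reads behind these levels were estimated at 20.8 to 104 per EAE mouse and 48.6 to 129 per control mouse. Without the filter the log2 fold change was -1.15 (SE 0.24, limma adjusted p = 0.00244) against Ctrl, beside 11.4% of 17225 genes called lower, and -0.77 (SE 0.24, limma adjusted p = 0.0329) against OVA, beside 7.33% of 17195 genes. With a pseudocount of 1 in place of 0.1 RPKM the fold change fell below 1.5 in both, and against OVA the call was also lost when any 1 of 7 of the 10 mice was left out (OVA replicate 3, 4 or 5 or EAE replicate 1, 2, 4 or 5), with adjusted p up to 0.0943.

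The remaining response genes were not called. TNFAIP3 (chr10:19000910-19015410), which encodes A20, measured 1.29, 1.36, 1.44, 1.96 and 2.29 RPKM in EAE mice and 1.28 to 3.32 RPKM in controls. Its difference was -0.27 (95% interval -0.76 to 0.23) against Ctrl and -0.41 (-0.90 to 0.08) against OVA, intervals wide enough to hold a 1.5-fold fall. BIRC3 (chr9:7847468-7873205), the ubiquitin ligase cIAP2, measured 2.87, 3.95, 3.98, 4.15 and 4.81 RPKM in EAE mice and 2.49 to 4.88 RPKM in controls. The BIRC3 difference was 0.19 (-0.16 to 0.55) against Ctrl and 0.03 (-0.32 to 0.38) against OVA.

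Counted by whether all 5 EAE mice lay outside the other group, NFKB2 and NFKBIB stood above and TNFAIP2 below in both comparisons. Among all genes tested, the 5 EAE mice lay above Ctrl for 21.2% and above OVA for 18.0%, and below Ctrl for 11.0% and below OVA for 8.20%. RELB, the other gene called higher, was kept from this count by EAE replicate 4.

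**Figure D3:**
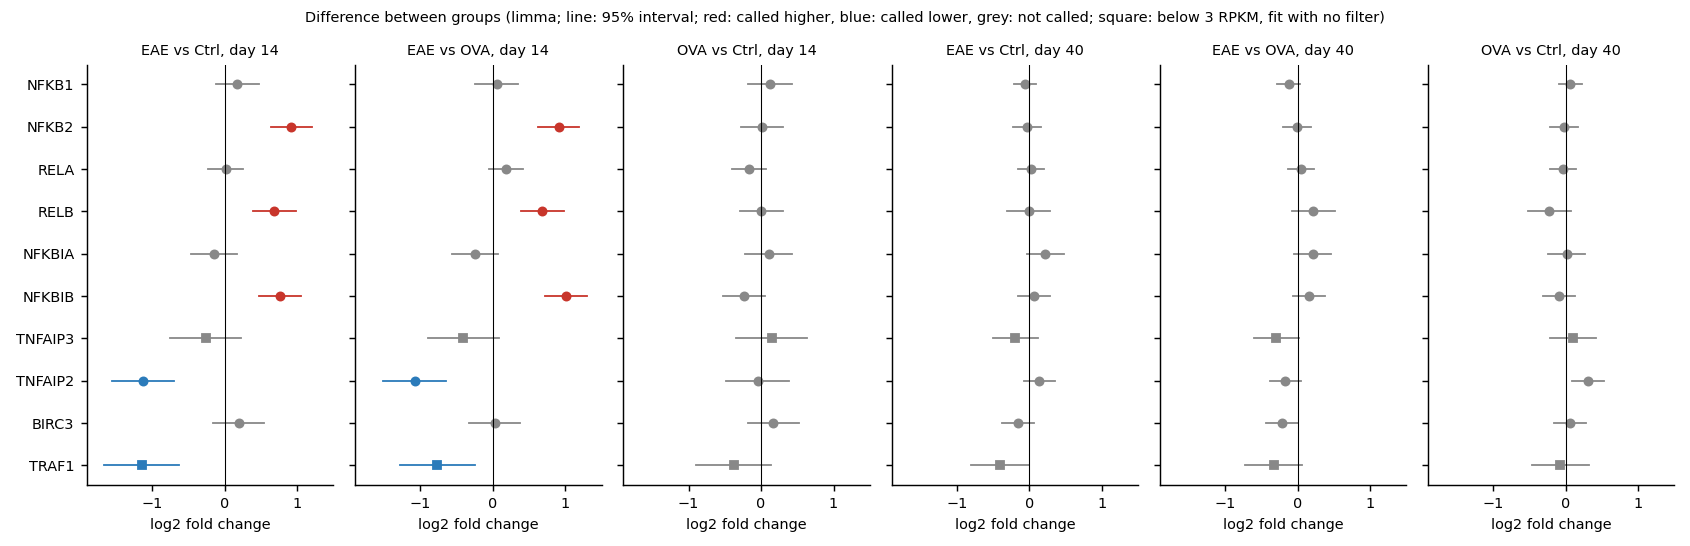
Log2 fold change of each gene in the 6 comparisons (limma, x axis), with the 95% interval as a line, red for called higher, blue for called lower and grey for not called, and squares for TNFAIP3 and TRAF1, fitted without the filter. The coloured points are all in the EAE comparisons of day 14, where NFKB2 stands at 0.92 and 0.91 and TNFAIP2 at -1.13 and -1.08.

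Ratios of RPKM taken within a mouse describe the balance between paired genes without regard to the scaling of the libraries, and no test was run on them. The ratio of RELB to RELA was 0.602, 0.620, 0.717, 0.720 and 0.850 in the EAE mice of day 14, and its highest value in any other group was 0.567. NFKBIB to NFKBIA gave 0.916, 1.06, 1.13, 1.36 and 1.37 in EAE mice against at most 0.728 in the other groups, so that IκBβ transcripts exceeded those of IκBα in 4 of the 5 EAE mice and in no other mouse. NFKB2 to NFKB1 ran from 1.20 to 2.00 in EAE mice and reached 1.53 in a Ctrl mouse of day 14, so this ratio overlapped.

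**Figure D4:**
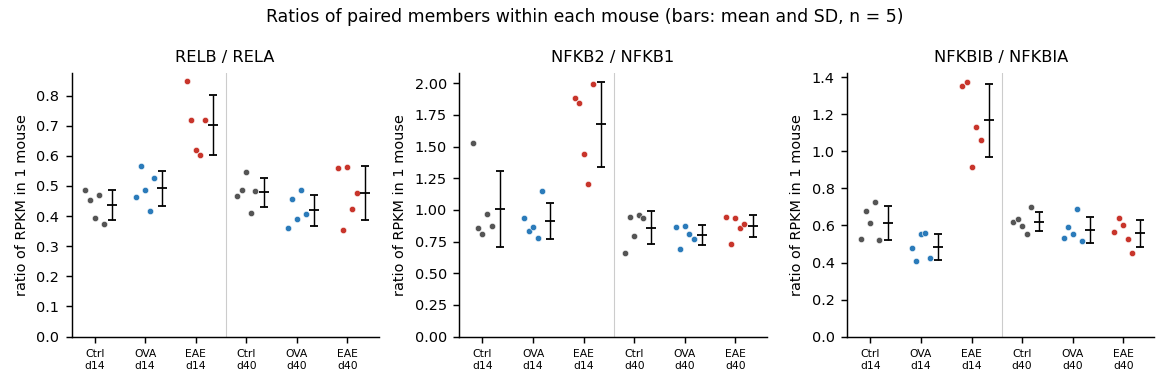
Ratio of RPKM of paired genes within each mouse (y axis) by group (x axis), with the mean and SD of 5 mice as a bar. The EAE mice of day 14 lie above all other mice for RELB to RELA and for NFKBIB to NFKBIA, and overlap a Ctrl mouse for NFKB2 to NFKB1.

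Immunization with ovalbumin in CFA was set against no immunization by OVA against Ctrl on day 14. None of the 8 genes tested was called by limma and none had an unadjusted p below 0.05. Of 8471 genes tested in the whole table, 0.142% were called and 821 had an unadjusted limma p below 0.05. NFKB2 averaged 9.04 ± 1.35 RPKM in OVA and 8.95 ± 1.29 RPKM in Ctrl mice, a log2 fold change of 0.01 (95% interval -0.27 to 0.30). For RELB the difference was 0.00 (-0.29 to 0.30), for NFKBIB -0.24 (-0.53 to 0.05) and for TNFAIP2 -0.05 (-0.48 to 0.39). These intervals leave out a 1.5-fold rise of NFKB2, RELB and NFKBIB after OVA in CFA.

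Remission was addressed on day 40. None of the 8 genes was called by limma in EAE against Ctrl, EAE against OVA or OVA against Ctrl, where 0.460%, 0.209% and 0.00% of the genes tested were called. At an unadjusted limma p below 0.05 the counts were 0, 0 and 1 of the 8, beside 2423 of 8691, 1500 of 8598 and 272 of 8706 genes. The single gene was TNFAIP2 in OVA against Ctrl (log2 fold change 0.31, limma adjusted p = 0.999). NFKB2 lay between 6.94 and 9.50 RPKM in all 15 mice, and its difference between EAE and Ctrl was -0.03 (95% interval -0.22 to 0.16). NFKBIB lay between 10.4 and 15.8 RPKM (EAE against Ctrl 0.06, -0.16 to 0.28) and TNFAIP2 between 28.3 and 45.9 RPKM (0.14, -0.08 to 0.35). RELB measured 4.36, 5.14, 6.02, 7.54 and 7.81 RPKM in EAE mice, with a difference of -0.01 (-0.30 to 0.29). TRAF1, fitted without the filter, measured 0.578 to 1.07 RPKM in EAE and 0.812 to 1.35 RPKM in Ctrl mice, a difference of -0.40 (unadjusted p = 0.047, limma adjusted p = 0.231). The intervals of NFKB2, NFKBIB and RELB leave out rises of the size called on day 14.

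Whether the day 14 differences were themselves different from those of day 40 was tested over all 30 mice. The EAE against Ctrl difference was larger on day 14 by 0.95 for NFKB2 (SE 0.16, limma adjusted p = 5.04e-05), by 0.69 for RELB (SE 0.20, limma adjusted p = 0.00658) and by 0.71 for NFKBIB (SE 0.17, limma adjusted p = 0.00182), and it was lower by 1.27 for TNFAIP2 (log2 difference -1.27, SE 0.24, limma adjusted p = 0.000136). That made 3 genes higher and 1 lower, beside 20.9% and 11.7% of 9013 genes. The Ctrl mice entered the TNFAIP2 day difference too, at 36.0 to 74.2 RPKM on day 14 and 31.1 to 35.4 RPKM on day 40. The TNFAIP2 means of day 14 and day 40 were 49.4 and 33.1 RPKM in Ctrl and 22.5 and 36.8 RPKM in EAE mice. For EAE against OVA the day difference was 0.91 for NFKB2 (limma adjusted p = 0.000107), 0.85 for NFKBIB (limma adjusted p = 0.000486) and -0.91 for TNFAIP2 (limma adjusted p = 0.00398), which is 2 genes higher and 1 lower beside 13.7% and 8.16% of 8935 genes. RELB did not pass there (0.46, limma adjusted p = 0.0741), nor did NFKBIA (-0.46, limma adjusted p = 0.0691). For OVA against Ctrl no gene of the whole table was called (0.00% of 8848, with 823 at an unadjusted p below 0.05, none of them among the 8).

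These day differences sit on a shift of the whole table. Its median was 0.15 for EAE against Ctrl, and median-of-ratios scaling moved it to 0.00 and the calls over all genes from 1888 higher and 1059 lower to 1257 and 1481. Against OVA the median went from 0.16 to 0.02 and the calls from 1222 and 729 to 771 and 1002. On that scale the day difference against Ctrl was 0.81 for NFKB2 and -1.41 for TNFAIP2, both still called, whereas 0.55 for RELB and 0.57 for NFKBIB fell short of 1.5-fold. The RELB call against Ctrl was also lost without EAE day 40 replicate 2, the mouse with the lowest RELB of its group (log2 difference 0.58).

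The wider pathway was followed with 80 further genes listed by role. Of these, 46 were tested in EAE against Ctrl on day 14, with 8 called higher and 5 lower, and 45 in EAE against OVA, with 5 higher and 4 lower, against the same shares of the table as above. In OVA against Ctrl on day 14 and in the 3 comparisons of day 40 none was called by limma. At an unadjusted limma p below 0.05, OVA against Ctrl on day 14 had 7 of 43, beside 821 of all 8471 genes tested. On day 40, EAE against Ctrl had 14 of 44, beside 2423 of 8691 genes. EAE against OVA had 11 of 45, beside 1500 of 8598, and OVA against Ctrl had 0 of 45, beside 272 of 8706. Of the 13 calls against Ctrl, 4 (TLR4, IRAK2, CCL5 and TAP1) were of genes above 3 RPKM only in the group where they were high, as was TLR4 among the 9 against OVA. The filter took in these genes through that group alone, so their calls are not read as support for the counts. TNF, LTA, LTB, IL1A, IL1B and 3 other ligands with CD40LG stayed below the 3 RPKM filter, so 1 of 10 ligands was tested.

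That ligand and its receptor moved in opposite directions. TNFSF12, the cytokine TWEAK, was 5.26 ± 1.34 RPKM in EAE and 11.6 ± 2.81 RPKM in Ctrl mice (log2 fold change -1.13, limma adjusted p = 0.000282) and was lower than in OVA as well (-0.70, limma adjusted p = 0.00982). TNFRSF12A, its receptor Fn14, which can signal through the non-canonical pathway, was 130 ± 55.5 RPKM in EAE and 29.9 ± 11.7 RPKM in Ctrl mice (2.07, limma adjusted p = 0.0004), with every EAE mouse at 69.4 RPKM or more and every Ctrl mouse at 48.7 RPKM or less. Against OVA the TNFRSF12A log2 fold change was 1.99 (limma adjusted p = 0.000649), and an OVA mouse reached 76.2 RPKM. TLR4, a receptor for bacterial products, averaged 4.05 RPKM in EAE, 1.27 RPKM in Ctrl and 1.78 RPKM in OVA mice (log2 fold change 1.59 and 1.12), passing the filter only through EAE, and no other of the 4 and 5 receptors tested was called.

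Of the adaptors, 3 of 12 were called higher against Ctrl, beside 14.6% of all genes tested. They included TRAF2, which joins TNF family receptors to the kinases (log2 fold change 0.79), and MAP3K7, the kinase TAK1 (0.62). The third was IRAK2 of interleukin 1 and Toll-like receptor signalling (0.66), above 3 RPKM only in EAE and not read as support. TRAF2 was also higher against OVA (0.79), as 1 of 11 adaptors, beside 11.0% of all genes tested. None of the 5 kinases tested was called on day 14. MAP3K14, the kinase NIK that acts ahead of NFKB2 processing and is named here after its values were seen, had a log2 fold change of 0.56 against Ctrl (limma adjusted p = 0.0398), short of 1.5-fold, and 0.44 against OVA (limma adjusted p = 0.111). For the day difference 3 of 5 kinases were called higher against Ctrl and 3 of 5 against OVA, beside 20.9% and 13.7% of all genes tested. Against Ctrl they were CHUK (0.75), MAP3K14 (0.73, limma adjusted p = 0.0141) and TBK1 (0.62). Against OVA they were MAP3K14 (0.73, limma adjusted p = 0.0201), CHUK (0.72) and IKBKB (0.59). On day 14 MAP3K14 passed the filter only through EAE. Against Ctrl no group of day 40 passed it either, so that call is not read as support for the count. Over all roles the day difference gave 13 higher and 7 lower of 47 against Ctrl, beside 20.9% and 11.7% of all genes tested. Against OVA it gave 9 and 6 of 46, beside 13.7% and 8.16%. TLR4, called higher in both, passed the filter only through EAE of day 14. CD83, called lower in both, passed it only through EAE of day 40. These calls are not read as support for the counts.

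Among the 10 regulators of ubiquitin chains, 3 were called higher against Ctrl and none lower, beside 14.6% and 11.8% of all genes tested. They were TAX1BP1, a cofactor of A20 (log2 fold change 0.77), and the deubiquitinating enzymes OTULIN (0.74) and CYLD (0.59), and the latter pair were called against OVA as well (0.66 and 0.63). No other subunit or IκB protein was called against Ctrl, and BCL3, a nuclear IκB protein, was lower against OVA (-0.67, limma adjusted p = 0.0228), as 1 of 3 tested. BCL3 averaged 2.86 RPKM in Ctrl, 4.78 RPKM in OVA and 3.05 RPKM in EAE mice, a log2 fold change of 0.06 for EAE against Ctrl and of 0.73 for OVA against Ctrl (limma adjusted p = 0.29).

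The other response genes moved down where they were called. Of 11 tested against Ctrl, 4 were lower and none higher, beside 11.8% and 14.6% of all genes tested. Of the 4, the chemokine CCL5 (log2 fold change -2.18) and the peptide transporter TAP1 (-2.00) were above 3 RPKM in Ctrl but not in EAE and are not read as support. TAP1 ran from 3.42 to 31.9 RPKM in Ctrl and from 1.49 to 2.92 RPKM in EAE mice. The others were the stress gene GADD45B (-1.72) and the mitochondrial superoxide dismutase SOD2 (-0.69). Against OVA, GADD45B (-0.95) and SOD2 (-0.93) were called lower and none of the 10 tested higher, beside 9.28% and 11.0% of all genes tested. TAP1 was not called there (-1.03, limma adjusted p = 0.0769). GADD45B measured 34.6 ± 9.77 RPKM in Ctrl, 19.6 ± 1.64 RPKM in OVA and 10.6 ± 3.36 RPKM in EAE mice.

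**Figure D5:**
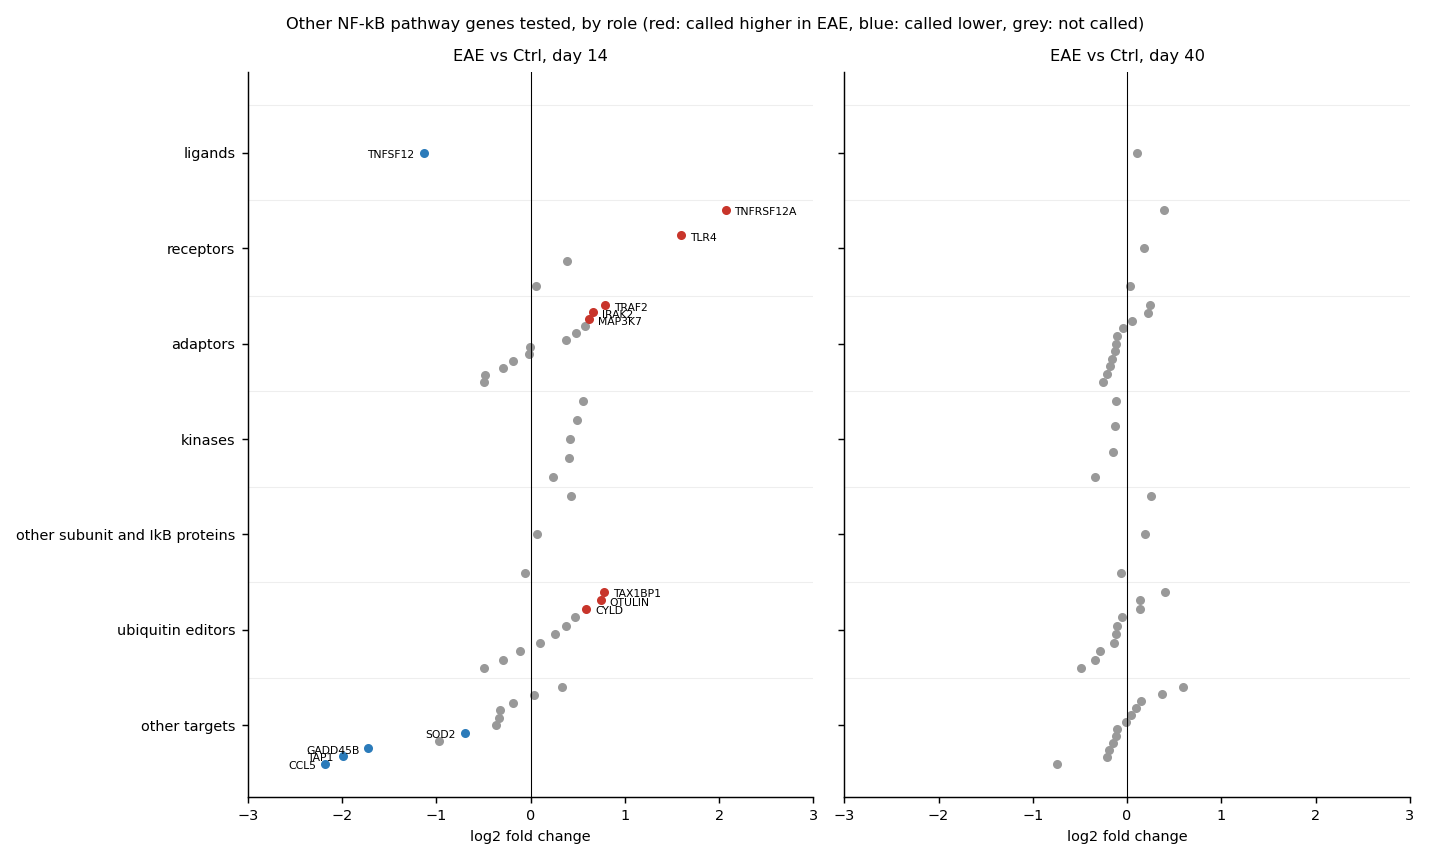
Log2 fold change of the pathway genes tested (points, x axis) by role (y axis) for EAE against Ctrl on day 14 and day 40, red for called higher and blue for called lower. On day 14 the called receptors, adaptors and ubiquitin editors lie to the right and the called ligand and response genes to the left, and on day 40 no point is coloured.

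Markers of other cells moved between the groups of day 14. The summed level of 12 macrophage markers was 156 to 352 RPKM in EAE, 338 to 501 RPKM in Ctrl and 314 to 492 RPKM in OVA mice, with 8 of 12 markers above 3 RPKM in EAE and 10 of 12 in each control group. That of 12 endothelial markers, all above 3 RPKM, was 130 to 178 RPKM in EAE, 155 to 209 RPKM in Ctrl and 140 to 222 RPKM in OVA mice. In EAE and Ctrl mice the medians were 220 and 375 RPKM for macrophages and 141 and 194 RPKM for endothelium, both lower where TNFAIP2 was lower. Of the endothelial markers, FLT1 (10.5 against 8.32 RPKM) and TEK (8.07 against 7.79 RPKM) had higher means in EAE than in Ctrl mice. The means of all other endothelial markers were lower. The part of these sums in the TNFAIP2 result was not tested. The 12 lymphocyte markers summed to 2.53 to 4.90 RPKM in EAE, 4.84 to 10.1 RPKM in Ctrl and 4.08 to 6.76 RPKM in OVA mice, none above 3 RPKM, and their part in the TRAF1 result was not tested. The 12 neutrophil markers summed to 221 to 407 RPKM in EAE, 71.8 to 242 RPKM in OVA and 5.47 to 12.3 RPKM in Ctrl mice, with 5, 5 and 0 of 12 above 3 RPKM, and LTF, MMP8 and LY6G under 0.1 RPKM in Ctrl mice. The mean was higher in EAE than in OVA for 2 of the 12, S100A8 (225 against 46.5 RPKM) and LCN2 (12.4 against 9.38 RPKM), and lower for the other 10, among them S100A9 (36.1 against 71.9 RPKM). The neutrophil sums of EAE and OVA mice overlapped each other, and neither overlapped that of Ctrl mice. The part of the neutrophil markers in the EAE results was not tested.

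Genes with the most similar course over the 6 groups were found by the root mean square difference of the centred group means of log2(RPKM + 0.1), among 9049 genes, and are given as a description. Nearest to NFKB2 were AKT2, a kinase of insulin signalling (0.0308), and the nuclear transport receptor IPO13 (0.038). RELB lay nearest to EIF4A1, a translation initiation helicase (0.0465), and to the ubiquitin ligase SIAH2 (0.0499). For NFKBIB they were DES, the muscle intermediate filament desmin (0.0523), and PSMA4, a subunit of the proteasome core (0.0534). TNFAIP2 lay nearest to FN3K, a kinase that acts on glycated proteins (0.0704), and HHATL (0.0731), and TRAF1 to FNDC1 and FAP, the fibroblast activation protein (0.0467 each). AKT2 had a mean of 49.4 RPKM in Ctrl and 93.5 RPKM in EAE mice of day 14 and stood at 48.0 to 49.1 RPKM in the 3 groups of day 40.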

How the data were processed

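EDL muscles of 30 mice (5 per group) were profiled by poly(A) RNA-Seq. Per the study's methods and the submitters' processing notes, the authors mapped read pairs to the mm10 genome by Subread, summarized them per gene over RefSeq transcripts by featureCounts and expressed them as RPKM. The deposited values are on a log2 scale, log2(RPKM + 1): converted back and multiplied by exon length, they sum to 1.114 to 1.144 M per mouse, against 0.123 to 0.145 M if read as RPKM. Values of 0.0001 mark genes with no read. Depth was estimated from the step of low values (67.0 to 71.6% within 0.05 of whole reads over 8569 genes with 1 transcript), too few to recover counts, so no count test was run and counting intervals were not given.

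Values were analysed as log2(RPKM + 0.1) in limma 3.58.1 (R 4.3.3) with a mean-variance trend, the 15 mice of a day in 1 model and day differences over 30 mice. Thresholds were those of the study (fold change 1.5, adjusted p 0.05 by Benjamini-Hochberg over all genes tested, 3 RPKM). Fold changes on this scale understate those of low genes. On simulated data the script recovered the changes put in. Labels number the samples and do not name animals, so p-values measure the spread between these samples. The 10 genes, the pathway and marker lists and the tests were chosen with earlier results of these data known. Named were all 10 genes, at most 4 called pathway genes per role and comparison by size, and the 2 most similar genes per called gene. Alternatives were the pseudocount, the filter, scaling, the trend, the fold threshold, the samples in the model, the replicate block and leaving out each mouse; those for TRAF1 and TNFAIP3 without the filter were added after seeing the data. Tables were made with Python 3.11.15 and pandas 2.3.3.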

Additional observations from a re-analysis of the deposited data

Results flagged for a closer look

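The difference between EAE and Ctrl muscle differed between day 14 and day 40 by a limma interaction test for NFKB2 (0.95 on the log2 scale), RELB (0.69), NFKBIB (0.71) and TNFAIP2 (-1.27). The difference between EAE and OVA muscle differed between the days for NFKB2 (0.91), NFKBIB (0.85) and TNFAIP2 (-0.91).

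Of 60 sets of 5 mice (10 genes in 6 groups), 4 held a mouse far from the others by Dixon's criterion, where chance gives about 1 in 20. NFKB1 was lowest in OVA day 40 replicate 1 at 9.34 RPKM, and RELA was highest in Ctrl day 40 replicate 4 at 15.1 RPKM. RELB was highest in OVA day 14 replicate 5 at 7.69 RPKM, and NFKBIA was highest in Ctrl day 14 replicate 1 at 34.8 RPKM. None of these lies in the EAE mice of day 14.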

How the results depend on the processing

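Of the 17 called results for single genes, 380 of 395 alternative fits kept the call, 15 lost it, and no called value changed sign. Among the uncalled ones, 83 of 1585 alternative values changed sign. The number of genes called for the day difference of EAE against Ctrl was 4 and fell to 2 under median-of-ratios scaling and to 2 under quantile normalization, through RELB and NFKBIB. On the other side, NFKBIA was called for the day difference of EAE against OVA under median-of-ratios scaling (-0.60, limma adjusted p = 0.0288), and TRAF1 for that of EAE against Ctrl in 4 fits with 1 mouse left out (up to -0.96). The cause was not tested.

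Fits with the replicate number as a block called the same numbers of genes: 4 in EAE against Ctrl and 4 in EAE against OVA on day 14, 0 in the other comparisons of a day, and 4, 3 and 0 for the day differences. As a whole the numbers did not pair the mice, since correlations of same-numbered mice ran from -0.716 to 0.692 and at most 1 of 5 matched its own number best. The replicate 1 mice of day 14 did correlate, at 0.507 for EAE with Ctrl, 0.692 for EAE with OVA and 0.607 for OVA with Ctrl. On day 40 the same values were -0.175, -0.129 and 0.048. What the replicate 1 mice of day 14 shared was not tested. Depth limits TRAF1 and TNFAIP3 most, and the low estimated reads of TRAF1 make its fold change depend on the pseudocount.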
